A study of Caenorhabditis elegans with 23 samples.

Results

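The *sdg-2* gene cluster is a run of 4 neighbouring genes on chromosome V of *Caenorhabditis elegans*, *sdg-2* itself (*Y102A5C.36*, WBGene00044213) and the annotated pseudogenes *Y102A5C.35* (WBGene00044220), *Y102A5C.5* (WBGene00014954) and *Y102A5C.6* (WBGene00014955). They were taken by sequence name, and each had 1 transcript, so that 4 of the 21982 genes in the files are described here. *sdg-2* was picked out by the study for its RNA level in *sid-1* mutants, and its neighbours were chosen with their levels in these libraries known. The differences of all 4 genes from wild type are therefore given below as a description, without p-values. Counts of the 4 genes that passed a threshold against wild type, and their ranks, come from the values used in the choice. They are set beside the share of all genes for scale only and are not support for the cluster. Tests are kept for comparisons that did not themselves enter the choice, although their libraries did.

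SID-1 is a membrane protein that imports double-stranded RNA into cells, and animals without it cannot silence genes in response to double-stranded RNA made in other cells or taken up from food. In the germline, imported RNA feeds into pathways of Argonaute proteins and antisense small RNAs that can carry silencing across generations. The study describes *sdg-2* as a germline gene whose RNA is in reach of these pathways.

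PolyA+ RNA was measured in 23 libraries of mixed-stage whole animals, which fall into 9 groups in 3 sets. The deletion set held *sid-1(jam113[deletion])*, in which the coding sequence of *sid-1* was removed by genome editing (strain AMJ1324), and N2 wild type (n = 3 each). The nonsense set held *sid-1(jam80[nonsense])* (AMJ1159), *sid-1(jam86[revertant])* (AMJ1217), made from it by editing the nonsense change and the missense change beside it back to wild-type sequence, and N2 wild type (n = 3 each). The TRIzol set held the older alleles *sid-1(qt9[nonsense])* (HC196) and *sid-1(tm2700[deletion])* (FX02700), the rescued strain *sid-1(tm2700[deletion]); tmIs1005[sid-1(+)]* (FX15992), whose integrated transgene over-expresses *sid-1*, and N2 wild type (n = 2 each). Each edited strain is 1 isolate, so allele and isolate cannot be told apart. The mutants of the TRIzol set are older strains, not edited from the same wild-type animals. The study compared *sid-1(tm2700[deletion])* only with its rescued strain. It proposes that differences such as genetic background obscure or misrepresent the effect of *sid-1* in this set. In comparisons of these strains with wild type, *sid-1* genotype and background cannot be told apart. Animals of the deletion and nonsense sets were grown on plates, and their RNA was extracted with RNAzol and sequenced as paired-end reads from stranded libraries. The TRIzol set was extracted with TRIzol and sequenced as single reads, and the labels give liquid culture where the study's methods give plates. Set, culture, extraction and library type cannot be told apart, so mutants and rescued animals were compared with wild type of their own set only. Where wild types or levels are set side by side across sets, the differences also hold all of these.

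Estimated counts per library ran between 22147631 and 26396892 in the TRIzol set, 35320382 and 71714435 in the nonsense set, and 52479992 and 79287591 in the deletion set. Levels are given as CPM, counts scaled to library size, with scaling by the trimmed mean of M values within each set. The genotype labels were checked on *sid-1*, which was at 1.28 ± 0.128 CPM in *sid-1(jam113[deletion])* against 51.6 ± 2.53 CPM in wild type (SD, n = 3 each). It was at 17.2 ± 1.17 CPM in *sid-1(jam80[nonsense])* and 31.02 ± 3.28 CPM in *sid-1(jam86[revertant])*, against 34.5 ± 1.58 CPM in wild type (SD, n = 3 each). In the TRIzol set it was at 16.7 ± 2.94 CPM (*sid-1(qt9[nonsense])*), 22.5 ± 1.51 CPM (*sid-1(tm2700[deletion])*) and 48.2 ± 5.27 CPM (the rescued strain), against 31.8 ± 0.852 CPM in wild type (SD, n = 2 each). The 3 *sid-1(jam113[deletion])* libraries differed more from each other than replicates of any other group did, with a chi-square per degree of freedom of 45.1 to 124.1 per pair, against 5.005 to 24.97 in the other groups.

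The 4 genes span 5079 bases of WBcel235. *Y102A5C.35* lies on the − strand at chrV:16924985-16926125 with 4 exons. *sdg-2*, the only protein-coding gene of the cluster, lies on the − strand at chrV:16926922-16927445 with 3 exons. *Y102A5C.5* lies on the + strand at chrV:16928328-16928999 with 4 exons, and *Y102A5C.6* on the + strand at chrV:16929167-16930063 with 1 exon. *sdg-2* and *Y102A5C.5* face away from each other, with 882 bases between their starts, and *Y102A5C.5* and *Y102A5C.6* follow each other on the + strand 167 bases apart. No other annotated gene overlapped any of the 4. The estimated counts were whole numbers (within 0.0005) in 23 of 23 libraries for *sdg-2* and *Y102A5C.5*, 19 of 23 for *Y102A5C.6* and 2 of 23 for *Y102A5C.35*, so reads of *Y102A5C.35* were shared with other transcripts in most libraries and its level is less certain. *Y102A5C.35* also had few reads, 0 to 50.5 per library, against 27 to 1018 for *sdg-2*, 48 to 2301 for *Y102A5C.5* and 112 to 3006 for *Y102A5C.6*.

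**Figure D1:**
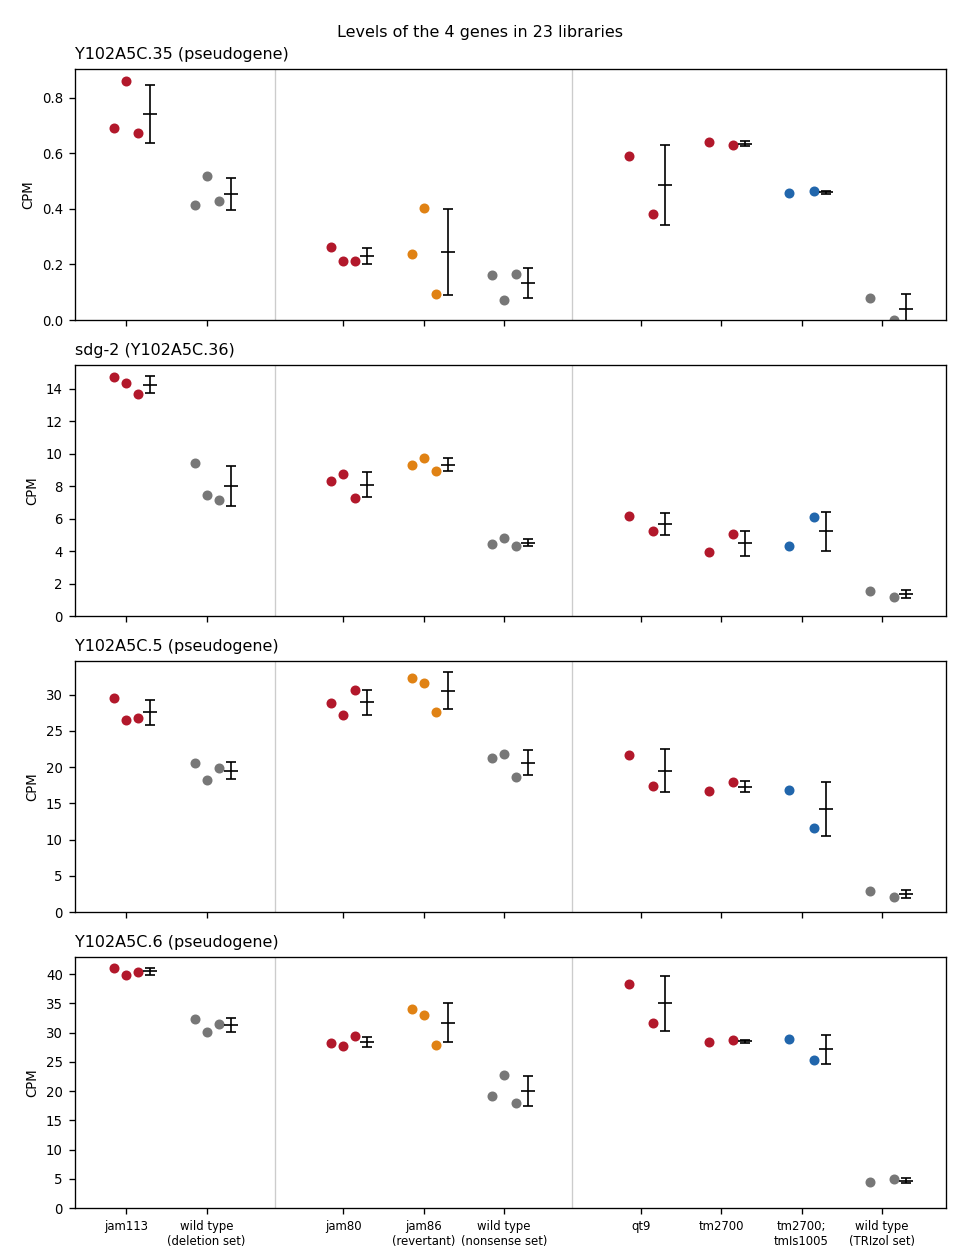
CPM (linear axes) of the 4 genes in every library of the 9 strain groups, with 1 panel per gene in chromosome order. Points are libraries (red, *sid-1* mutants; orange, revertant; blue, rescued strain; grey, wild type), the bar beside them is the group mean with its SD, and vertical lines separate the 3 sets. In the bottom panels *Y102A5C.5* and *Y102A5C.6* stand low in the 2 TRIzol wild-type libraries (2.13 to 4.97 CPM) and at 11.6 CPM or more in every other library.

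In the deletion set, all 4 genes were higher in *sid-1(jam113[deletion])* than in wild type in every library. *sdg-2* was at 14.7, 14.4 and 13.7 CPM in *sid-1(jam113[deletion])*, against 9.41, 7.44 and 7.14 CPM in wild type. *Y102A5C.5* was at 29.6, 26.4 and 26.7 CPM in the mutant, against 20.5, 18.2 and 19.8 CPM in wild type, and *Y102A5C.6* was at 41.1, 39.9 and 40.4 CPM against 32.4, 30.1 and 31.4 CPM. *Y102A5C.35*, on 36 to 51 reads per mutant library and 29 to 34 per wild-type library, was at 0.692, 0.860 and 0.672 CPM against 0.412, 0.518 and 0.430 CPM. For each of the 4 genes the lowest mutant library thus lay above the highest wild-type library. Log2 fold changes were 0.84 (standard error 0.12) for *sdg-2*, 0.50 (0.08) for *Y102A5C.5*, 0.37 (0.06) for *Y102A5C.6* and 0.71 (0.22) for *Y102A5C.35*, by edgeR's quasi-likelihood fit over all genes. At an adjusted p under 0.05, 0 of the 4 genes were called, where 0.197% of the 16783 genes tested were called in either direction (4 of the 4 had an unadjusted p under 0.05, and limma with voom called 0), and 4 of 4 were higher with no overlap, which 9.48% of all tested genes were. Without *sid-1(jam113[deletion])* replicate 3, the number of genes called was 1370, against 33 with all libraries, and *sdg-2*, *Y102A5C.5* and *Y102A5C.6* passed the threshold. DESeq2, which called 582 genes, also called these 3. The study lists *sdg-2* as raised in this mutant at a q under 0.05 by limma with voom, a call that the refit here did not return. Its RT-qPCR at a later generation detected no rise of *sdg-2* in this strain.

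In the nonsense set, too, all 4 genes were higher in *sid-1(jam80[nonsense])* than in wild type in every library. *sdg-2* was at 8.29, 8.73 and 7.26 CPM in *sid-1(jam80[nonsense])*, against 4.44, 4.79 and 4.33 CPM in wild type. *Y102A5C.5* was at 28.9, 27.2 and 30.6 CPM against 21.3, 21.8 and 18.7 CPM, and *Y102A5C.6* at 28.1, 27.6 and 29.4 CPM against 19.2, 22.8 and 17.9 CPM. *Y102A5C.35* was at 0.262, 0.214 and 0.213 CPM in the mutant, on 11 to 13 reads per library, against 0.163, 0.0717 and 0.166 CPM in wild type, on 4 to 8 reads. No gene overlapped between the groups. Log2 fold changes were 0.84 (standard error 0.10) for *sdg-2*, 0.50 (0.07) for *Y102A5C.5*, 0.51 (0.08) for *Y102A5C.6* and 0.82 (0.43) for *Y102A5C.35*. The fit called 3 of the 4 genes, all but *Y102A5C.35*, where 0.0665% of the 16547 genes tested were called, and 4 of 4 were higher with no overlap, against 5.37% of all genes. *sdg-2* was called with any library left out. *Y102A5C.5* was lost without replicate 3 of *sid-1(jam80[nonsense])* or of wild type. *Y102A5C.6* was lost in 5 of the 6 fits, all but the one without wild-type replicate 2. In this strain the study's RT-qPCR at a later generation did find *sdg-2* raised.

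*sdg-2*, *Y102A5C.5* and *Y102A5C.6* were above wild type in every library of *sid-1(jam86[revertant])*, where the change of *sid-1* RNA from wild type missed the threshold (-0.15 on the log2 scale, with an adjusted p of 0.256 by edgeR). *sdg-2* was at 9.31, 9.71 and 8.96 CPM in *sid-1(jam86[revertant])*, above all 3 libraries of the nonsense mutant and of wild type. *Y102A5C.5* was at 32.3, 31.7 and 27.6 CPM, *Y102A5C.6* at 34.1, 33.1 and 27.9 CPM and *Y102A5C.35* at 0.239, 0.402 and 0.0945 CPM in the revertant. Against the same wild-type libraries as above, log2 fold changes were 1.04 (standard error 0.10) for *sdg-2*, 0.57 (0.08) for *Y102A5C.5*, 0.66 (0.09) for *Y102A5C.6* and 0.93 (0.53) for *Y102A5C.35*. The fit called 3 of the 4 genes, all but *Y102A5C.35*, where 3.28% of the 16629 genes tested were called, and the same 3 were higher with no overlap, against 14.2% of all genes. By RT-qPCR the study reports that the rise of *sdg-2* in the revertant persisted after a year of passaging.

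The comparison of *sid-1(jam86[revertant])* with *sid-1(jam80[nonsense])* asks whether restoring *sid-1* changed the cluster. It did not itself enter the choice of genes, though the libraries of both strains did, through their comparison with wild type. Choosing genes above the same wild type in both strains favours a small difference between them. This test is thus not independent of the choice. The *sid-1* RNA itself was higher in the revertant by 0.86 on the log2 scale (standard error 0.08, with an adjusted p of 0.000204 by edgeR). For *sdg-2* the log2 fold change was 0.21 (95% interval 0.0078 to 0.41, adjusted p = 0.249 by edgeR), for *Y102A5C.5* it was 0.08 (-0.07 to 0.23, adjusted p = 0.562), for *Y102A5C.6* 0.16 (0.0043 to 0.32, adjusted p = 0.254) and for *Y102A5C.35* 0.12 (-0.82 to 1.06, adjusted p = 0.911). None of the 4 genes passed the threshold, where 1.25% of the 16602 genes tested did, and none did with any library left out or under the other settings, DESeq2 and limma with voom included, that gave a value. At an unadjusted p under 0.05 there were 3126 of all genes, *sdg-2* and *Y102A5C.6* among them, both higher in the revertant. *sdg-2* was higher in the revertant with no overlap, as were 12.7% of all genes.

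The changes in the 2 edited mutants are set side by side as a description, since *sdg-2* was picked for rising in both. The log2 change in *sid-1(jam113[deletion])* minus that in *sid-1(jam80[nonsense])* was -0.01 for *sdg-2* (standard error 0.16), 0.01 for *Y102A5C.5* (0.11), -0.14 for *Y102A5C.6* (0.11) and -0.10 for *Y102A5C.35* (0.42). By edgeR, 0.250% of the 17170 genes fitted differed in this way past the threshold, which is given as background only.

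**Figure D2:**
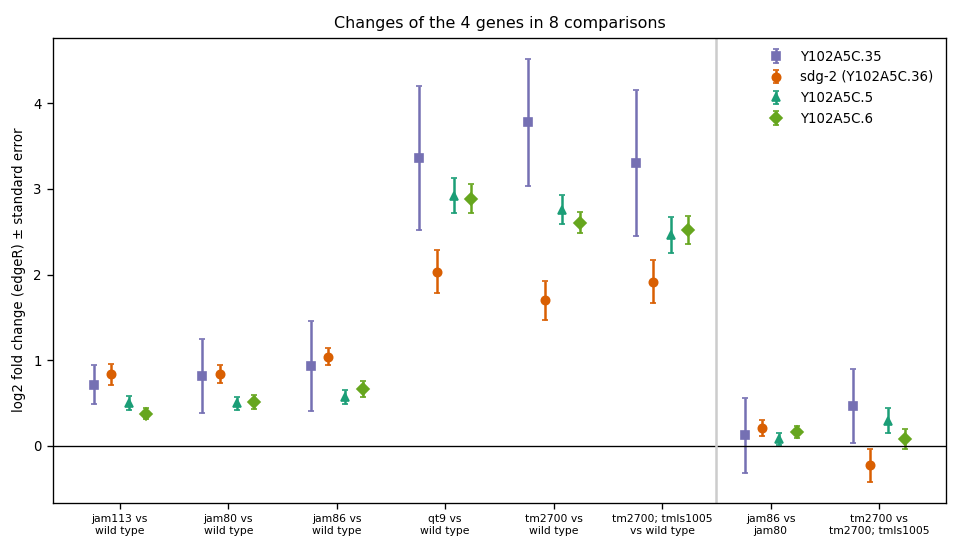
Log2 fold changes of the 4 genes in 8 comparisons, from edgeR's quasi-likelihood fits, with standard errors as bars. The first 6 comparisons are with the wild type of the same set, and the 2 right of the line compare *sid-1(jam86[revertant])* with *sid-1(jam80[nonsense])* and *sid-1(tm2700[deletion])* with its rescued strain. *sdg-2* lies at 0.84 to 1.04 in the plate sets and at 1.70 to 2.04 in the TRIzol set, and *Y102A5C.5* and *Y102A5C.6* lie below it in the plate sets and above it in the TRIzol set.

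In the TRIzol set the same genes differed from wild type by more, and they did so in all 3 strains, the rescued one included. The 2 *sid-1(qt9[nonsense])* libraries had *sdg-2* at 6.15 and 5.21 CPM, the *sid-1(tm2700[deletion])* libraries at 3.92 and 5.02 CPM and those of the rescued strain at 4.34 and 6.07 CPM, against 1.53 and 1.20 CPM in wild type. *Y102A5C.5* was at 21.6 and 17.4 CPM in *sid-1(qt9[nonsense])*, 16.7 and 17.9 CPM in *sid-1(tm2700[deletion])* and 16.8 and 11.6 CPM in the rescued strain, against 2.94 and 2.13 CPM in wild type. *Y102A5C.6* was at 38.3 and 31.7 CPM in *sid-1(qt9[nonsense])*, 28.4 and 28.7 CPM in *sid-1(tm2700[deletion])* and 28.9 and 25.3 CPM in the rescued strain, against 4.42 and 4.97 CPM in wild type. Both wild-type libraries were thus the lowest for each of these 3 genes. Among the other strains *sdg-2* in the rescued strain overlapped with both others, while its lowest *sid-1(qt9[nonsense])* library lay above the highest of *sid-1(tm2700[deletion])*. For *Y102A5C.6* both *sid-1(qt9[nonsense])* libraries lay above those of the other 2 strains. The 3 comparisons share these 2 wild-type libraries and are not independent of each other. They also hold any difference in genetic background, whose part was not tested.

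For *sid-1(qt9[nonsense])* against wild type, log2 fold changes were 2.04 (standard error 0.25) for *sdg-2*, 2.92 (0.20) for *Y102A5C.5* and 2.89 (0.17) for *Y102A5C.6*. For *sid-1(tm2700[deletion])* against wild type they were 1.70 (0.23), 2.76 (0.16) and 2.604 (0.12) for the same genes, and for the rescued strain against wild type 1.92 (0.25), 2.46 (0.21) and 2.52 (0.16). *Y102A5C.35* had 13 and 10 reads in the *sid-1(qt9[nonsense])* libraries, 17 and 15 in those of *sid-1(tm2700[deletion])* and 10 and 12 in those of the rescued strain, against 2 and 0 in wild type. Its ratio to wild type in summed reads, scaled by library totals, was 11.4 for *sid-1(qt9[nonsense])* (95% exact counting interval 2.82 to 99.8), 15.8 for *sid-1(tm2700[deletion])* (4.03 to 136.1) and 11.4 for the rescued strain (2.79 to 99.7). These intervals cover counting error only. The fit called 4 of the 4 genes in each comparison, where 1.84% of 18273 genes were called for *sid-1(qt9[nonsense])*, 1.11% of 18311 for *sid-1(tm2700[deletion])* and 3.54% of 18297 for the rescued strain. All 4 were higher with no overlap in each, which 23.3%, 19.3% and 23.2% of all genes were. *Y102A5C.35* was at 0.0783 and 0 CPM in wild type, under the filter of 0.1 CPM. It was tested only through the mutant or rescued libraries, where it was high, so its place in these counts carries no weight. *sdg-2*, *Y102A5C.5* and *Y102A5C.6* kept their calls with any library left out, and *Y102A5C.35* lost its call without wild-type replicate 2 for *sid-1(qt9[nonsense])* and the rescued strain, and under limma with voom for *sid-1(tm2700[deletion])*, and was below the filter without either library of a mutant or the rescued strain. Ranked by log2 fold change in the 3 TRIzol comparisons with wild type, 0.339% to 0.475% of the genes tested stood above *sdg-2*, 0.071% to 0.263% above *Y102A5C.5* and 0.12% to 0.268% above *Y102A5C.6*. In the 3 plate comparisons with wild type, 0.616% to 1.86% stood above *sdg-2*, 2.57% to 5.83% above *Y102A5C.5* and 2.41% to 9.56% above *Y102A5C.6*. *Y102A5C.35* is not ranked here, since its fitted change in *sid-1(tm2700[deletion])* against wild type ran from 2.94 to 6.96 with 1 wild-type library left out.

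Between *sid-1(tm2700[deletion])* and its rescued strain, a comparison on which the choice of neighbours did not rest, *sid-1* RNA was lower in the deletion strain (-1.10 on the log2 scale, standard error 0.12, with an adjusted p of 1.24e-07 by edgeR), whereas 0 of the 4 genes passed the threshold. The levels of both strains against wild type were known at that choice, so this test is not independent of it. The log2 fold change of *sdg-2* was -0.23 (95% interval -0.61 to 0.15, adjusted p = 0.638 by edgeR), that of *Y102A5C.5* 0.29 (-0.0034 to 0.59, adjusted p = 0.362), that of *Y102A5C.6* 0.08 (-0.16 to 0.31, adjusted p = 0.852) and that of *Y102A5C.35* 0.46 (-0.42 to 1.34, adjusted p = 0.704). Of the 18293 genes tested, 2.07% passed the threshold, and 2573 had an unadjusted p under 0.05, none of the 4 genes among them, and DESeq2 and limma with voom called 0 of the 4. *Y102A5C.35* was higher in the deletion strain with no overlap, as were 20.4% of all genes. *Y102A5C.5* depended on 1 library, since without replicate 1 of the rescued strain, which had 16.8 CPM against 11.6 CPM in replicate 2, its log2 fold change was 0.58 (adjusted p = 0.00999 by edgeR), against 0.04 to 0.58 over the fits without 1 library.

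The wild types differed between sets, so that the level of a gene in wild type was not fixed. *sdg-2* averaged 7.999 ± 1.23 CPM in wild type of the deletion set and 4.52 ± 0.237 CPM in wild type of the nonsense set (SD, n = 3 each), and 1.36 ± 0.232 CPM in wild type of the TRIzol set (SD, n = 2). *Y102A5C.6* averaged 31.3 ± 1.13 CPM in the deletion set's wild type, 19.98 ± 2.54 CPM in the nonsense set's and 4.70 ± 0.388 CPM in the TRIzol set's. *Y102A5C.5* averaged 19.5 ± 1.18 CPM in the deletion set's wild type, 20.6 ± 1.69 CPM in the nonsense set's and 2.53 ± 0.569 CPM in the TRIzol set's. Between the 2 plate sets, log2 fold changes of the deletion set's wild type over the nonsense set's were 0.58 for *sdg-2* (adjusted p = 0.00166 by edgeR), 0.40 for *Y102A5C.6* (adjusted p = 0.00194), 1.55 for *Y102A5C.35* (adjusted p = 0.00259) and -0.32 for *Y102A5C.5* (adjusted p = 0.00717). All 4 genes were called, 3 higher and 1 lower, but so were 64.4% of the 16757 genes tested, and 3 of 4 were higher with no overlap, as were 45.2% of all genes. Stage and tissue markers differed too. In the deletion set's wild type, edgeR called 8 of 8 cuticle and moulting, 5 of 5 muscle, 8 of 10 sperm and 5 of 7 neuron genes lower, and 0 higher. Of 6 *vit* genes 3 were lower and 0 higher. Of 13 germline genes 6 were higher and 3 lower, and of 9 oocyte and embryo genes 3 were higher and 3 lower. The part of stage and tissue in the levels of the 4 genes was not tested. The direction of *Y102A5C.5* depended on the scale. In TPM, length-scaled abundances that take in transcript length and each library's fragment lengths, its log2 ratio between these wild types was 0.15, and that of *sdg-2* was 1.10.

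Ordered by mean CPM over the 9 groups, *sdg-2* stood highest in *sid-1(jam113[deletion])* (14.3 CPM), followed by *sid-1(jam86[revertant])* (9.33), *sid-1(jam80[nonsense])* (8.09) and wild type of the deletion set (7.999), with overlap between the last 2. Then came *sid-1(qt9[nonsense])* (5.68), the rescued strain (5.21), wild type of the nonsense set (4.52) and *sid-1(tm2700[deletion])* (4.47), each of which overlapped with its neighbour in the order. Wild type of the TRIzol set (1.36) stood lowest with no overlap, as it did for *Y102A5C.5* and *Y102A5C.6*. *Y102A5C.5* was highest in *sid-1(jam86[revertant])* (30.5), *sid-1(jam80[nonsense])* (28.9) and *sid-1(jam113[deletion])* (27.6), which overlapped, and *Y102A5C.6* in *sid-1(jam113[deletion])* (40.5). Orders across sets also hold the differences between sets.

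Per transcript length, *Y102A5C.5* was the most abundant of the 4 RNAs in every group. In *sid-1(jam113[deletion])* it was at 71.2 ± 4.72 TPM, *sdg-2* at 48.1 ± 3.14 TPM, *Y102A5C.6* at 45.5 ± 1.49 TPM and *Y102A5C.35* at 0.810 ± 0.134 TPM (SD, n = 3). In wild type of that set *Y102A5C.5* was at 51.9 ± 0.501 TPM, *sdg-2* at 27.7 ± 3.36 TPM, *Y102A5C.6* at 36.1 ± 0.747 TPM and *Y102A5C.35* at 0.506 ± 0.0931 TPM (SD, n = 3). *sdg-2*, the protein-coding gene, was thus below its divergent pseudogene neighbour in every group. The balance between *sdg-2* and *Y102A5C.5* differed between groups. The TPM ratio of *Y102A5C.5* to *sdg-2* was 1.48 ± 0.0635 in *sid-1(jam113[deletion])* against 1.89 ± 0.233 in wild type, and 2.86 ± 0.440 in *sid-1(jam80[nonsense])* and 2.59 ± 0.163 in *sid-1(jam86[revertant])* against 3.599 ± 0.167 in wild type (SD, n = 3 each). In the TRIzol set it ran the other way, with 2.41 ± 0.0879 for *sid-1(qt9[nonsense])*, 2.76 ± 0.354 for *sid-1(tm2700[deletion])* and 2.04 ± 0.978 for the rescued strain, against 1.30 ± 0.0724 in wild type (SD, n = 2 each). These ratios were lower than in wild type with no overlap in the 3 plate strains and higher in *sid-1(qt9[nonsense])* and *sid-1(tm2700[deletion])*, while the rescued strain overlapped with wild type. The TPM ratio of *Y102A5C.6* to *Y102A5C.5* lay between 0.47 and 0.77 over all groups. It was lower with no overlap in *sid-1(jam113[deletion])*, at 0.640 ± 0.0292 against 0.696 ± 0.0197 in wild type (SD, n = 3 each). In the other 5 strains it overlapped with wild type of the same set, and within the nonsense set it was 0.475 ± 0.0146 in *sid-1(jam80[nonsense])* and 0.497 ± 0.0150 in *sid-1(jam86[revertant])* against 0.466 ± 0.0394 in wild type (SD, n = 3 each).

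The levels of the 4 RNAs were compared across libraries. Over the 23 libraries, with log2 CPM centred on the mean of each set, Pearson's r was 0.98 between *Y102A5C.5* and *Y102A5C.6*, 0.90 between *sdg-2* and *Y102A5C.6*, 0.89 between *sdg-2* and *Y102A5C.5*, and 0.83 to 0.90 between *Y102A5C.35* and the others. Within each set *Y102A5C.5* and *Y102A5C.6* had an r of 0.98 to 0.99, and *sdg-2* had 0.92 to 0.98 with each of these 2 genes. *Y102A5C.35*, the RNA with the fewest reads, had 0.93 to 0.96 with the other 3 in the TRIzol set and 0.80 to 0.85 in the deletion set, but 0.51 to 0.58 in the nonsense set. The libraries share genotype and set, so these values follow the group differences given above and are a description only. The neighbours were chosen with their levels in these libraries known, so their rank by likeness to *sdg-2* is no test. Of the 14787 genes over 1 CPM in at least 5 libraries, *Y102A5C.6* and *Y102A5C.5* were the 2 whose levels were most like those of *sdg-2* by this measure. The next 5 were the pseudogene *Y46G5A.6* on chromosome II (r = 0.84), the pseudogene *B0047.5* on chromosome II (0.82), *T03D3.5* on chromosome V (0.81), *bath-21* on chromosome II (0.81) and *slc-17.8* on chromosome V (0.78). Without centring by set, *Y102A5C.6* and *Y102A5C.5* kept their places and *Y46G5A.6* followed them, while *T03D3.5*, *bath-21* and *slc-17.8* had an r of 0.57, 0.54 and 0.31. By Spearman's correlation *Y102A5C.6* again came first (0.84), but *Y102A5C.5* (0.79) came at rank 4 and *Y46G5A.6* (0.78) at rank 6.

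**Figure D3:**
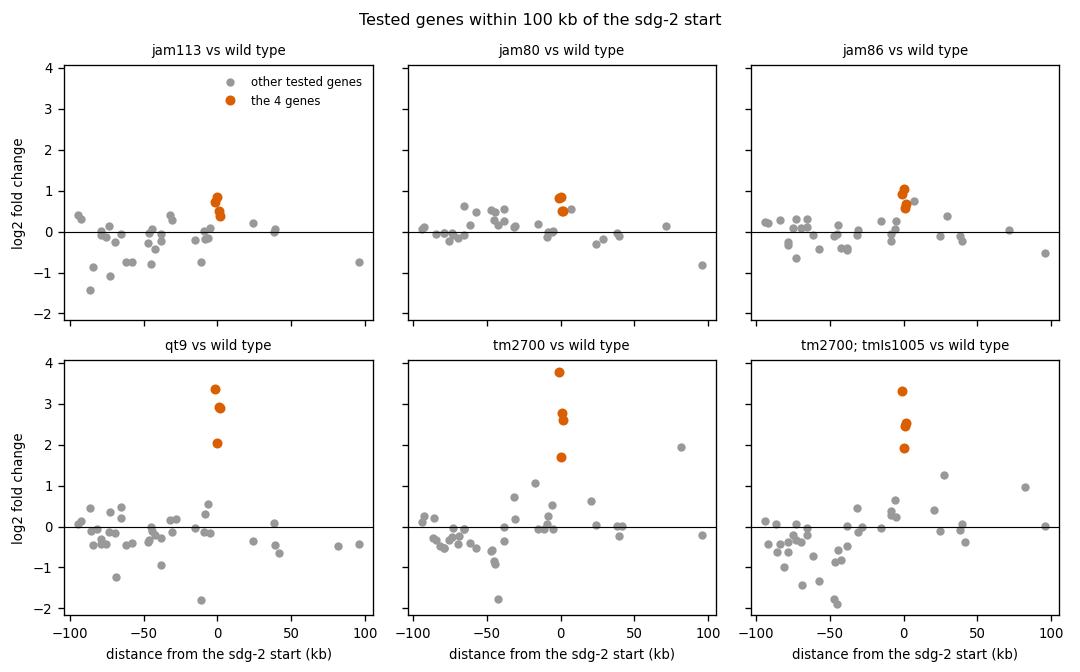
Log2 fold changes (edgeR) of genes tested within 100 kb of the *sdg-2* start, against distance from that start in kb, with positive distances toward higher coordinates, in the 6 comparisons with wild type. Orange points are the 4 genes of the cluster and grey points the 32 to 40 other genes tested. In the *sid-1(qt9[nonsense])* panel the 4 genes lie at 2.04 to 3.36, and the highest of the other genes is at 0.55, whereas in the *sid-1(tm2700[deletion])* panel 1 other gene at 1.94 lies above *sdg-2* at 1.70, and in each panel of the plate sets 1 or more lie above *Y102A5C.6*.

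Genes around the cluster were then compared in the same way. Of the other genes within 100 kb of the *sdg-2* start, 0 of 32 were called in *sid-1(jam113[deletion])*, 0 of 33 in *sid-1(jam80[nonsense])*, 0 of 33 in *sid-1(jam86[revertant])*, 0 of 39 in *sid-1(qt9[nonsense])* and 0 of 40 in *sid-1(tm2700[deletion])* against wild type by edgeR's quasi-likelihood test. Of these genes, 4, 0, 3, 3 and 8 had an unadjusted p under 0.05 in the 5 comparisons, limma with voom called 0, and DESeq2 called 1 in *sid-1(jam113[deletion])* and 0 elsewhere. By size of the log2 fold change alone, the neighbours and the cluster were not apart in every comparison. Against wild type, 2 other genes lay above *Y102A5C.6* in *sid-1(jam113[deletion])* (the highest at 0.41), 4 above *Y102A5C.5* and *Y102A5C.6* in *sid-1(jam80[nonsense])* (the highest at 0.61), 1 above both in *sid-1(jam86[revertant])* (0.74) and 1 above *sdg-2* in *sid-1(tm2700[deletion])* (1.94), none of them called. In the rescued strain 3 of 40 were called, *T20B3.2* and *F09C6.3* lower and *Y102A5C.3* (*fbxa-207*) higher by 0.66 (adjusted p = 0.0441 by edgeR). The files hold 37 further genes of the name *Y102A5C*, of which 7 to 10 were tested in each comparison with wild type, and *fbxa-207* was the only one called in any of them. By level, *fbxa-207* was above both TRIzol wild-type libraries in every library of the 3 TRIzol strains. Its log2 fold changes were 0.55 (*sid-1(qt9[nonsense])*), 0.53 (*sid-1(tm2700[deletion])*) and 0.66 (the rescued strain). *Y102A5C.2* was also above wild type in each of these libraries, with 0.30, 0.26 and 0.38 in the same order, while *Y102A5C.4* had -0.15, -0.07 and 0.23. The nearest neighbour on the *Y102A5C.35* side, *Y102A5C.4*, lies 590 bases away and was at 0.48 CPM in *sid-1(jam113[deletion])* against 0.45 CPM in wild type on average. Between wild types of the 2 plate sets, 5 of 8 tested genes of that name were higher and 2 lower, led by *fbxa-206*, *fbxa-207*, *efl-1*, *clec-239* and *Y102A5C.2*.

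Other gene groups were set beside the cluster, since whole animals of mixed stage were used and a change in the share of a tissue and in its RNA per cell cannot be told apart. Of 13 germline genes, 0 were called in the edited mutants, *sid-1(jam86[revertant])*, *sid-1(qt9[nonsense])* or *sid-1(tm2700[deletion])* against wild type by edgeR (0, 0, 2, 6 and 1 had an unadjusted p under 0.05, limma with voom called 0, and DESeq2 called 2 in *sid-1(jam86[revertant])*). *mex-5*, an RNA-binding regulator of early embryos, was lower in the rescued strain (-0.47 on the log2 scale, with an adjusted p of 0.0384 by edgeR). None of the germline genes was at 0, and their summed level was 2560 to 3047 CPM for *sid-1(qt9[nonsense])*, 2208 to 2314 CPM for *sid-1(tm2700[deletion])* and 1926 to 2381 CPM for the rescued strain, against 2353 to 2456 CPM in wild type. Of 32 genes of small RNA and dsRNA pathways, *set-25*, a histone methyltransferase, was lower in *sid-1(jam86[revertant])* than in wild type (-0.37 on the log2 scale, with an adjusted p of 0.0233 by edgeR), and no other one was called in a comparison with wild type by edgeR, while 1 to 13 had an unadjusted p under 0.05 and DESeq2 called 1 in *sid-1(jam113[deletion])*, 4 in *sid-1(jam86[revertant])* and 1 in *sid-1(qt9[nonsense])*. Somatic and stage markers did move with the TRIzol strains. The yolk protein gene *vit-3* was higher on the log2 scale by 0.89 (*sid-1(qt9[nonsense])*), 1.14 (*sid-1(tm2700[deletion])*) and 1.21 (the rescued strain), and 4, 1 and 2 of 6 *vit* genes were called higher in the same strains. The summed *vit* level was 26264 to 32017 CPM in *sid-1(qt9[nonsense])*, 24509 to 27877 CPM in *sid-1(tm2700[deletion])* and 22168 to 28809 CPM in the rescued strain, against 24341 to 24652 CPM in wild type. Of 8 genes for larval cuticle and moulting, 3 were higher in *sid-1(qt9[nonsense])* and 4 lower in the rescued strain. In *sid-1(jam86[revertant])*, 4 of 10 sperm genes were higher than in wild type, with a summed level of 374 to 388 CPM against 289 to 338 CPM. The part of these markers in the levels of the cluster was not tested. Between *sid-1(tm2700[deletion])* and the rescued strain, 4 of 8 cuticle and 4 of 5 muscle genes were called higher in *sid-1(tm2700[deletion])*. Of all genes tested there, 2.07% were called in either direction.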

How the data were processed

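Total RNA was made into polyA+ libraries from mixed-stage animals, trimmed with cutadapt and assigned to transcripts with salmon by the authors, whose versions are not given in the sources used here. The deposited values are estimated counts per transcript, not normalized, and TPM, scaled by the authors' tool for transcript length and depth. Here estimated counts were summed to 21982 genes of WBcel235 (of 35749 transcripts, 31176 were matched by identifier, 4485 by sequence name and 88 not) and rounded. Each comparison was fitted on its own libraries with edgeR 4.0.16 in R 4.3.3, using its quasi-likelihood test, TMM scaling, genes over 0.1 CPM in at least 3 libraries (2 in the TRIzol set), and Benjamini-Hochberg adjustment over all genes tested, with a threshold of 0.05. The standard error is the log2 fold change over the root of the test statistic, and 95% intervals use the t distribution with the fit's total degrees of freedom, not adjusted for the number of genes. The study's own test, limma with voom (limma 3.58.1), DESeq2 1.42.0, DESeq2 size factors in edgeR, no filter, all groups of a set in 1 fit, the replicate number as a block and each library left out were alternatives. The scripts were tested on simulated data. Levels are CPM with TMM scaling within a set, and likeness to *sdg-2* used log2 CPM with a prior count of 2. Values of n are libraries, and p-values measure the spread between them; the study's methods call them biological replicates.

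The 4 genes, the lists of marker and pathway genes and the tests were chosen with earlier results of these data known. Named genes are the 4, *sid-1*, *sdg-1*, called genes of the same sequence name (at most 5 per comparison), the 5 most like *sdg-2*, and called list genes (at most 3 per list and comparison); *T20B3.2* and *F09C6.3* were named after their values were seen. Marker lists covered germline (13 genes), oocyte and embryo (9), sperm (10), intestine yolk (6), body wall muscle (5), neuron (7) and larval cuticle and moulting (8). Of the lists not described above, edgeR called 1 of 9 oocyte and embryo genes against wild type in the plate sets (*spn-4*, lower in *sid-1(jam86[revertant])*) and 0 in the TRIzol set (0 to 7 had an unadjusted p under 0.05, 7 in the rescued strain; limma with voom called 1 in *sid-1(jam86[revertant])* and 2 in the rescued strain, and DESeq2 2 in *sid-1(jam113[deletion])* and 2 in *sid-1(jam86[revertant])*). By edgeR, 2 of 5 muscle genes were higher in *sid-1(qt9[nonsense])* and 2 in *sid-1(tm2700[deletion])*, 1 was lower in the rescued strain, and 0 of 7 neuron genes were called against wild type by edgeR (0 to 3 had an unadjusted p under 0.05, and limma with voom and DESeq2 called 0). *sqt-3*, a cuticle collagen, was higher in *sid-1(jam86[revertant])*. No sequence of the genes was used here.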

Additional observations from a re-analysis of the deposited data

Results flagged for a closer look

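Results outside the 4 genes stood out by a difference between groups. The change of *sid-1* in *sid-1(jam113[deletion])* minus that in *sid-1(jam80[nonsense])* was -4.32 (log2), with *sid-1* lower in 3 of 3 libraries of each mutant. This difference was set in advance, since *sid-1(jam113[deletion])* lacks the coding sequence of *sid-1*. For *sdg-1* (*F07B7.2*), the other gene named by the study with *sdg-2*, the same difference was 2.57, with *sdg-1* higher in 3 of 3 libraries of each mutant. It is given without a p-value, since the study picked *sdg-1* for rising in both mutants. The study gives *sdg-1* as the identical loci *W09B7.2* and *F07B7.2*. Only the entry of *F07B7.2* was read here, so its values may not hold all reads of *sdg-1*. *sdg-1* was higher in every library of *sid-1(jam113[deletion])* (log2 fold change 3.82), *sid-1(jam80[nonsense])* (1.25) and *sid-1(qt9[nonsense])* (0.97) than in the wild-type libraries of the same set. In *sid-1(tm2700[deletion])* its change was smaller than its error (-0.27, standard error 0.28), on 26 and 26 reads against 34 and 26 in wild type. The difference between alleles was not tested. *sdg-2* was higher in all of these strains.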

How the results depend on the processing

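Leaving aside fits without 1 library, 203 of 215 fits of the 4 genes under another setting kept their direction and their side of the threshold; 1 was lost (*Y102A5C.35* in *sid-1(tm2700[deletion])* against wild type), 4 were gained (all against wild type in *sid-1(jam113[deletion])*) and 7 changed sign. The changes of sign were all in values near 0 that passed no threshold. The difference between the edited mutants became 0.0021 for *sdg-2* with DESeq2 size factors, 0.0056 without a filter, 0.011 with voom, 0.0027 with DESeq2 and 0.0043 with the replicate block, and -0.0064 for *Y102A5C.5* with voom. *Y102A5C.35* in *sid-1(jam86[revertant])* against *sid-1(jam80[nonsense])* became -0.056 with voom. With 1 library left out, that value ran from -0.34 to 0.44. The difference between the edited mutants ran from -0.081 to 0.15 for *sdg-2*, -0.34 to 0.25 for *Y102A5C.35* and -0.048 to 0.071 for *Y102A5C.5*, and *sid-1(tm2700[deletion])* against the rescued strain from -0.44 to 0.038 for *sdg-2* and -0.019 to 0.18 for *Y102A5C.6*. In TPM, *Y102A5C.5* between the wild types was 0.15. The cause of these moves was not tested.

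The number of genes called depended on the setting far more than the 4 genes did. Without a filter it was 77 for *sid-1(jam113[deletion])*, 28 for *sid-1(jam80[nonsense])*, 472 for the revertant against the nonsense mutant, 759 for *sid-1(qt9[nonsense])*, 403 for *sid-1(tm2700[deletion])*, 611 for *sid-1(tm2700[deletion])* against its rescued strain and 126 for the difference between the edited mutants. With DESeq2 it was 582 (*sid-1(jam113[deletion])*), 34 (*sid-1(jam80[nonsense])*), 929 (revertant against wild type), 573 (revertant against nonsense mutant), 394 (rescued strain against wild type), 229 (*sid-1(tm2700[deletion])* against the rescued strain) and 321 (difference between the edited mutants). With all groups of a set in 1 fit it was 17 for *sid-1(jam80[nonsense])* and 191 for *sid-1(tm2700[deletion])* against the rescued strain. Same-numbered libraries did not deviate together in all pairs (r from -0.08 to 0.32), so the numbers were not taken as pairs. With the replicate block, 11 genes were called for *sid-1(jam113[deletion])*, 21 for *sid-1(jam80[nonsense])*, 88 for the revertant against the nonsense mutant and 28 for the difference between the edited mutants.

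With 1 library left out the counts ran from 7 to 1370 for *sid-1(jam113[deletion])*, 7 to 22 for *sid-1(jam80[nonsense])*, 116 to 736 for *sid-1(jam86[revertant])*, 57 to 777 for the revertant against the nonsense mutant, 120 to 1598 for *sid-1(qt9[nonsense])*, 266 to 706 for *sid-1(tm2700[deletion])*, 315 to 1183 for the rescued strain, 110 to 1532 for *sid-1(tm2700[deletion])* against the rescued strain, and 16 to 1335 for the difference between the edited mutants. The highest of the first and last came without *sid-1(jam113[deletion])* replicate 3, those of 1598 without *sid-1(qt9[nonsense])* replicate 2, and of 1183 and 1532 without replicate 1 of the rescued strain. Depth limits *Y102A5C.35*, with 0 to 50.5 reads per library. DESeq2 gave *Y102A5C.35* an adjusted p only in *sid-1(jam113[deletion])* against wild type and between the wild types, and gave none to *sdg-2* in *sid-1(qt9[nonsense])* against wild type.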
